A study of Mus musculus with 11 samples.

Results

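Day 9 was compared with day 6 of reprogramming within each of the 2 sorted populations that the study's design text calls poised, CD49d+ cells and CD73+ cells. The comparison uses 4 of the 11 arrays of the series, 1 array per population and day: the change of a gene in a population is its log2 intensity at day 9 minus that at day 6. Genes were then grouped as higher or lower at day 9 in both populations or in 1 population only. Because there is 1 array per group, none of these differences has a replicate, and a difference between 2 arrays is a description of those 2 arrays.

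When fibroblasts are made to express Klf4, Oct4, Myc and Sox2, they lose their spindle shape and matrix-producing programme early and gain epithelial features, a mesenchymal-to-epithelial transition. Adhesion proteins such as E-cadherin (Cdh1) and Epcam, keratin filaments and membrane-bound serine proteases with their inhibitors belong to the epithelial side. Collagens, fibrillins, thrombospondins and the Twist factors belong to the mesenchymal side, and the stem cell network of genes such as Nanog and Esrrb comes on late and in few cells.

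All reprogramming samples came from mouse embryonic fibroblasts heterozygous for an rtTA activator at the Rosa locus (Rosa-rtTA +/-), given Klf4, Oct4, Myc and Sox2 on tetO viruses and kept in doxycycline from day 0. The cells were collected at day 6 and day 9 as CD49d+, CD73+ and CD73- fractions, sorted a second time, and as an unsorted total, so every one of these 8 samples carries the activator and the factors. The other 3 samples were V6.5 embryonic stem cells (ESC), Rosa-rtTA +/- fibroblasts (MEF) and SC4, which is a partially reprogrammed line. The labels do not say whether the 2 days or the sorted fractions came from separate cultures, whether a CD49d+ fraction also holds CD73+ cells, or how many cells were sorted. The unsorted cultures also hold poised and CD73- cells.

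The sorted arrays carried the RNA of their markers. Nt5e, which encodes CD73, had an intensity of 3438 and 3658 in CD73+ cells at day 6 and day 9. It was nearly as high in CD49d+ cells, at 2828 and 2704, against 332 and 292 in CD73- cells. Itga4, which encodes CD49d, stood in CD49d+ cells at 1859 and 1588, in CD73+ cells at 1082 and 1206, and at 153 and 169.6 in CD73- cells. Both poised fractions were therefore high in both markers on both days, and neither marker differed 1.5-fold between the days. Klf4 lay between 3900.0 and 3997 on the 4 poised arrays against 704 in MEF. Pou5f1 read 123 even in ESC, so this probe set does not check the factor, and Sox2 was listed at the floor on all 4.

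Intensities were deposited on a linear scale with a floor of 100, which held 52.1% to 53.6% of the probe sets on the 4 poised arrays. A value at the floor is an upper bound, so a fold with 1 day at the floor is given as "at least". Of 22180 named genes, 12711 were above the floor on at least 1 poised array. The median day change over these was -0.03 log2 units in CD73+ cells and under 0.01 in size in CD49d+ cells.

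The days differed little over the transcriptome as a whole: 95.6% of the 12711 genes in CD49d+ cells and 94.5% in CD73+ cells lay within 0.5 log2 units of no difference. In CD49d+ cells 29 genes (0.228%) were at least 2-fold higher at day 9 and 33 (0.26%) at least 2-fold lower. In CD73+ cells 85 (0.669%) were higher and 29 (0.228%) lower. Both populations shared 10 of the higher genes (0.0787% of all), which is 34.5% of the CD49d+ list and 11.8% of the CD73+ list. They shared 6 of the lower genes (0.0472%), 18.2% of the CD49d+ list and 20.7% of the CD73+ list. At 1.5-fold, 65 genes (0.511%) were higher and 50 (0.393%) lower in both. In CD49d+ cells 152 genes (1.2%) were at least 1.5-fold higher and 228 (1.79%) lower, and in CD73+ cells 293 (2.31%) and 188 (1.48%). Across the 12711 genes the 2 sets of day changes had a Pearson correlation of 0.25 and a Spearman correlation of 0.06. Each point is 1 gene on the same 4 arrays, and genes are not independent replicates. The day changes of CD73+ cells correlated more with those of unsorted cells (Pearson 0.58, Spearman 0.55) and CD73- cells (0.43 and 0.31). Those of CD49d+ cells had Pearson correlations of 0.04 with unsorted and 0.05 with CD73- cells.

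**Figure D1:**
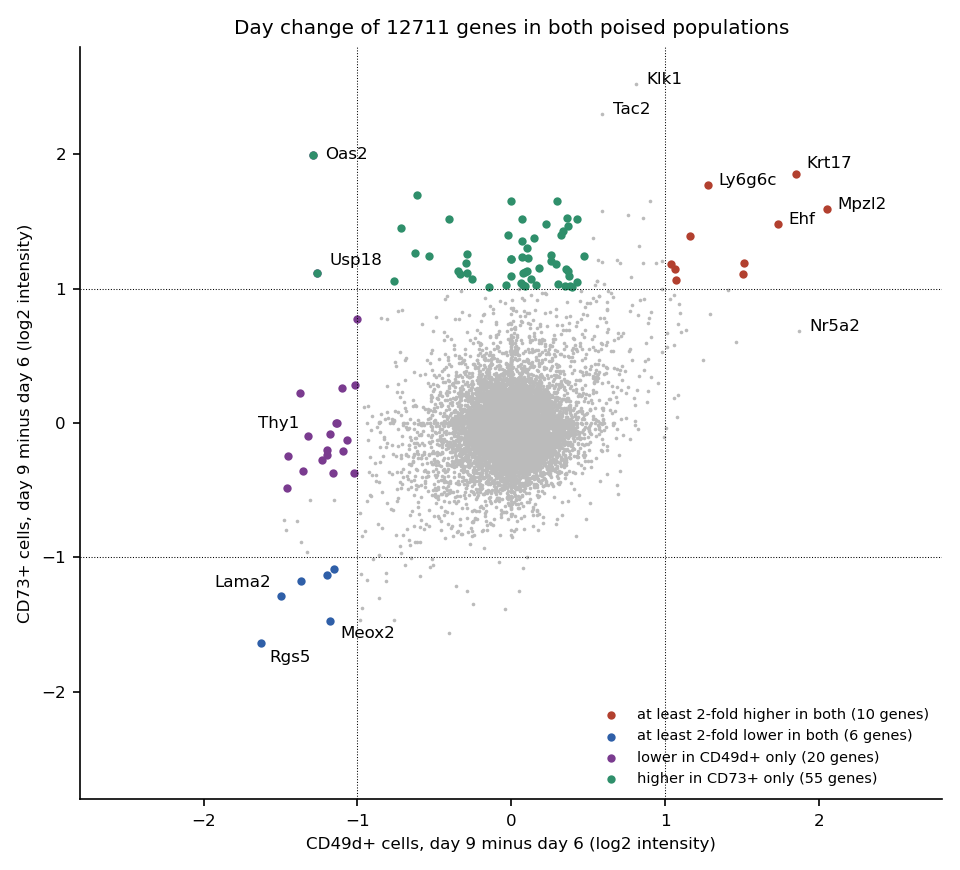
Day change (day 9 minus day 6, log2 intensity) of 12711 genes in CD49d+ cells (x axis) and CD73+ cells (y axis); dotted lines mark 2-fold. Coloured points are the genes at least 2-fold higher or lower in both populations, lower in CD49d+ cells only or higher in CD73+ cells only. Oas2 and Usp18 belong to both of these single-population sets. All other genes are grey, among them the 5 higher in CD49d+ cells only and the 8 lower in CD73+ cells only. Most genes lie near 0 on both axes, the 10 genes of the upper right corner and 6 of the lower left were at least 2-fold apart in both, and Oas2 and Usp18 lie alone in the upper left.

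No gene passed a test across populations. A limma model over the 8 reprogramming arrays, with a term for each population, 1 day term for the poised pair and 1 for the CD73- and unsorted pair, gave 0 of 13313 genes (0%) at an adjusted p under 0.05 for the poised day term. There were 918 genes (6.9%) at an unadjusted p under 0.05, and the smallest adjusted p was 0.107, for Rgs5. The model's standard errors measure in part how far the 2 populations of a pair differ in their day change, over 2 residual degrees of freedom. The other part is a prior spread taken over all genes, with 2.39 degrees of freedom. A pair at the floor on both days, as CD73- and unsorted cells were for Rgs5, adds no spread. These errors do not measure the spread between repeat cultures. The same held for the difference between the poised pair and the other pair (0%, with 533 genes, or 4.0%, at an unadjusted p under 0.05). It also held for the difference between CD49d+ and CD73+ cells (0%, with 631, or 4.74%). The spread of the latter is in part that between CD73- and unsorted cells and in part a prior over all genes, with 1.28 degrees of freedom. Where no gene differs and the model holds, a share of 0.05 falls under the unadjusted threshold. The shares for both differences lay below that level. After each array was centred on its median, 41 genes passed the poised term, but none did when the values were also raised to 1 common floor after centring. Among genes over 200 on at least 1 array, 4 passed: Krt17, Ehf, Rgs5 and Lama2.

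The genes that were higher at day 9 in both poised populations were led by epithelial genes. Krt17, a keratin of basal and activated epithelium, went from 222 to 802 in CD49d+ cells and from 209.6 to 758 in CD73+ cells. Both day 9 arrays stood above both day 6 arrays, 3.61-fold and 3.62-fold higher, and the mean difference was 1.85 ± 0.11 log2 units (SE; adjusted p = 0.156). Mpzl2, an adhesion protein of epithelial cells, went from 247 to 1023 in CD49d+ cells and from 129 to 391 in CD73+ cells, 4.14-fold and 3.02-fold higher. Ehf, an ETS transcription factor of epithelia, read 257 (CD49d+) and 229 (CD73+) at day 6 and 854 and 641 at day 9, a mean difference of 1.61 ± 0.10 log2 units (SE; adjusted p = 0.156). Ehf was at the floor in MEF and ESC and stood at 1250.0 in SC4. In these 3 genes no day 6 poised array reached a day 9 one.

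Other genes of the set are known from skin and secretory epithelia. Ly6g6c, a member of the Ly6 family of lipid-anchored surface proteins, was the brightest: 1041 (CD49d+) and 1041 (CD73+) at day 6 and 2522 and 3548 at day 9. The 2 populations started at the same level, and CD73+ cells ended higher. Alox12b, a lipoxygenase of the skin barrier, went from 135 to 385 in CD49d+ cells and from 214 to 488 in CD73+ cells. Fgfbp1, a secreted carrier of fibroblast growth factors, went from 240.3 to 681 in CD49d+ cells and from 259 to 559 in CD73+ cells. Both were at the floor in MEF, and the days did not overlap for either gene.

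The remaining 4 of the 10 were Srgn, the proteoglycan core protein serglycin, Slc7a7, a transporter subunit for cationic amino acids, Csn1s1, a milk casein, and Nefl, the light neurofilament chain. Srgn went from 362 to 808 in CD49d+ cells and from 343 to 899.8 in CD73+ cells, 2.24-fold and 2.62-fold higher. Slc7a7 read 359 (CD49d+) and 245 (CD73+) at day 6 and 737 and 557 at day 9. Csn1s1, at the floor in MEF and ESC, went from 280.0 to 587 in CD49d+ cells and from 176 to 391 in CD73+ cells. Nefl was higher on the CD49d+ array of each day, at 837 (CD49d+) and 551 (CD73+) at day 6 and 1757 and 1151 at day 9. In all 4 genes the day 9 arrays stood above the day 6 arrays. Slc7a7, Csn1s1 and Nefl fall below the 12 largest mean differences and are named to complete the set.

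**Figure D2:**
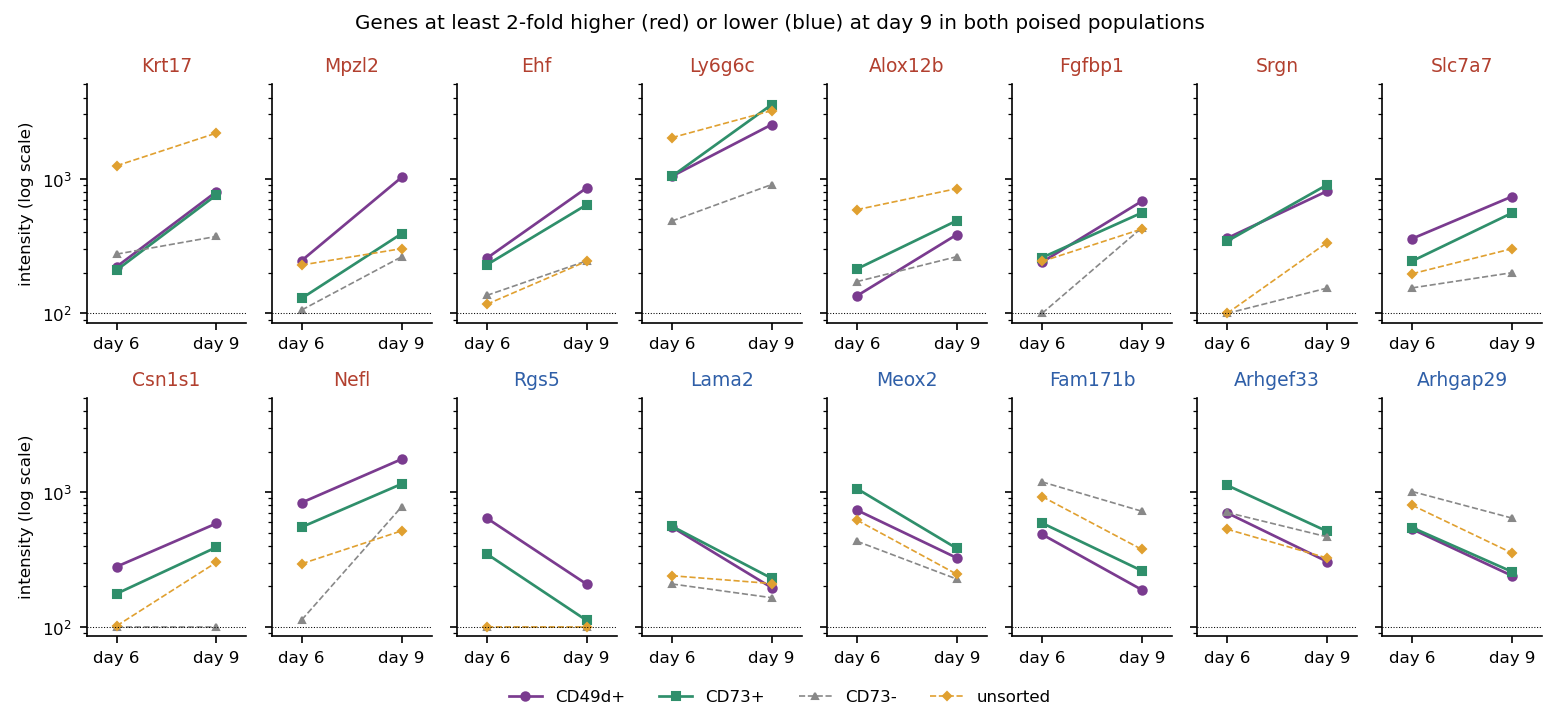
Intensity (log axis, floor of 100 dotted) at day 6 and day 9 of the 10 genes at least 2-fold higher (red names) and the 6 at least 2-fold lower (blue names) at day 9 in both poised populations, 1 array per point. CD49d+ (circles) and CD73+ (squares) lines run alongside each other in each panel; CD73- (triangles) and unsorted cells (diamonds) are dashed. Krt17 ran from 222 to 802 and from 209.6 to 758, and Rgs5 was at the floor in CD73- and unsorted cells.

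Of the 12 largest mean differences, 5 belonged to genes that were 1.5-fold higher in both but missed 2-fold in 1 population. Klk1, a tissue kallikrein, went from 665 to 1167 in CD49d+ cells and from 434 to 2490.3 in CD73+ cells, and Tac2, the neurokinin B precursor, went from 1068 to 1611 in CD49d+ cells and from 589 to 2902 in CD73+ cells: in both genes CD73+ cells started lower and ended higher. Nr5a2, an orphan nuclear receptor that can act on the Oct4 gene, went from 113 to 415 in CD49d+ cells and from 100 to 161 in CD73+ cells, 3.66-fold and at least 1.61-fold higher. It was at the floor in CD73- and unsorted cells on both days and reached 2108 in SC4 and 895 in ESC. Lypd5, a surface protein of the Ly6 and PLAUR domain family, went from 270.1 to 505 in CD49d+ cells and from 268 to 845 in CD73+ cells, and St14, the epithelial membrane protease matriptase, went from 432 to 1148 in CD49d+ cells and from 339.9 to 677 in CD73+ cells. St14 lay just outside the 2-fold limit, with a change of 0.99 log2 units in CD73+ cells, and Slc7a7 just inside, with 1.04 in CD49d+ cells.

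Genes lower at day 9 in both populations included some known from mesodermal and perivascular cells. Rgs5, a regulator of G-protein signalling known from pericytes, went from 642 to 208 in CD49d+ cells and from 348 to 112 in CD73+ cells. It was 3.09-fold and 3.12-fold lower, a mean difference of -1.63 ± 0.07 log2 units (SE; adjusted p = 0.107), the smallest adjusted p of the comparison. It was at the floor in CD73- and unsorted cells on both days, so the poised populations alone among the 8 arrays had a measurable level. Those floor values add no spread to the fit, which makes this SE and adjusted p smaller. Lama2, the laminin alpha-2 chain of muscle basement membrane, went from 552 to 195 in CD49d+ cells and from 559 to 229 in CD73+ cells, a mean difference of -1.39 ± 0.09 log2 units (SE; adjusted p = 0.156). Meox2, a homeobox factor of somites and muscle, read 736 (CD49d+) and 1062 (CD73+) at day 6 and 325 and 382 at day 9. On day 6 it was 432 in CD73- and 621 in unsorted cells and 199 in MEF, so all 4 reprogramming samples of day 6 lay above the fibroblasts.

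The other 3 of the 6 were Fam171b, Arhgef33 and Arhgap29. Fam171b went from 486 to 188 in CD49d+ cells and from 590.4 to 261 in CD73+ cells, Arhgef33 from 702 to 306 in CD49d+ cells and from 1126 to 513 in CD73+ cells and Arhgap29 from 531 to 239.6 in CD49d+ cells and from 546 to 257 in CD73+ cells. Arhgef33 was at the floor in MEF, SC4 and ESC, whereas Fam171b and Arhgap29 stood at 1148 and 1501 in MEF. All 6 genes had both day 9 poised arrays below both day 6 ones. Arhgap29 lay just inside the limit, with -1.09 log2 units in CD73+ cells, and Rspo3, a Wnt agonist, just outside, with -0.98 in CD49d+ cells.

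Rspo3 went from 237 to 119.7 in CD49d+ cells and from 317 to 115 in CD73+ cells, against 1511 in MEF. Fabp7, a fatty acid binding protein of neural precursors, went from 1123 to 574 in CD49d+ cells and from 2765 to 1065 in CD73+ cells, and differed the other way in CD73- cells, 248 to 675. Vsnl1, a neuronal calcium sensor, went from 467 to 186 in CD49d+ cells and from 873 to 448 in CD73+ cells. In each of these 3 genes the CD73+ array of day 6 was the highest of the 4. The matrix gene Fbn2 (fibrillin 2) went from 406 to 147 in CD49d+ cells and from 203 to 117 in CD73+ cells, the membrane-cytoskeleton linker Epb41l3 from 854 to 332 in CD49d+ cells and from 1154 to 623 in CD73+ cells and the heparan sulphate proteoglycan Gpc3 from 339 to 199 in CD49d+ cells and from 400.2 to 145 in CD73+ cells. Fbn2 and Epb41l3 were highest in MEF of all 11 arrays, at 1984 and 2019.8, and Gpc3 stood at 1207 in MEF and 1558 in ESC.

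The promoter windows of 4 genes are shown because the genes differed the same way in both populations: Epcam and Krt8, at least 1.5-fold higher in both, and Rgs5 and Meox2, at least 2-fold lower in both. They were chosen after the values were seen, among genes with 1 start in the RefSeq table (GRCm38.p6), which has no entry for Krt17, Ehf, Mpzl2, St14 or Cdh1. The windows of Spint1, Alox12b, Lama2 and Twist2 were scanned too and are not shown. Each window runs from 250 bases before the annotated start to 50 after it, read 5′ to 3′ on the gene's strand. Capitals mark matches on either strand to 4 motifs. The first was CAGGTG, an E-box of the Zeb and Snail repressor families. The second was TGANTCA, an AP-1 site. The third was AACCNGTT, a grainyhead site. The last, the TATA box, was TATAAA. The windows lie at chr17:87635729-87636028, plus strand (Epcam), chr15:102004293-102004592, minus strand (Krt8), chr1:169655251-169655550, plus strand (Rgs5) and chr12:37108290-37108589, plus strand (Meox2).
Epcam: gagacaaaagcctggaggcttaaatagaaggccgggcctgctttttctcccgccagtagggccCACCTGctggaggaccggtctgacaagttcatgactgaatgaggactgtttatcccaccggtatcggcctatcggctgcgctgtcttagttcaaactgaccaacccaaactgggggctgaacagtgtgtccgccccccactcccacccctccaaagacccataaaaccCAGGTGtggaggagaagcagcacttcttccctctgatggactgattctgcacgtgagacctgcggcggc
Krt8: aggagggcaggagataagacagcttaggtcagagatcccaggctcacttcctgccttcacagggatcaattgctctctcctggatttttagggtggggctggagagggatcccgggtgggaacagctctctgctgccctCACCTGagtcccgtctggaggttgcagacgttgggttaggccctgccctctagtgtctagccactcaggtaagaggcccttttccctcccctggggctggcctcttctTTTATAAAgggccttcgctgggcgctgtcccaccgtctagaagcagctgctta
Rgs5: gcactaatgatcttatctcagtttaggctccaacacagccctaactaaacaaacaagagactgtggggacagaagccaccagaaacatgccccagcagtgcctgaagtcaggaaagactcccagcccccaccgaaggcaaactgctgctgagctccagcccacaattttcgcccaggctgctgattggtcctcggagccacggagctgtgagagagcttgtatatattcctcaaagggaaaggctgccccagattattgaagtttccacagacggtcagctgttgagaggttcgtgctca
Meox2: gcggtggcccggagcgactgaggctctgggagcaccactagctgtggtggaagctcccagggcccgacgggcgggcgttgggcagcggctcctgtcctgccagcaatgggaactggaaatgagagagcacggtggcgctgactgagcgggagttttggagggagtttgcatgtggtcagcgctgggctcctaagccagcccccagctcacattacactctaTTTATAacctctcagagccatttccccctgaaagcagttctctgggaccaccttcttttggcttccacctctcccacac
Epcam held 2 E-boxes, 187 and 19 bases upstream of the start. Krt8 held 1, 111 bases upstream, and 2 overlapping TATA box matches on opposite strands. These began 3 and 1 bases upstream and ran across the annotated start. Meox2 held a TATA box match on the opposite strand, 29 bases upstream, and Rgs5 held none of the 4 motifs. CAGGTG was in 20.2% of all 32851 windows of the table, in 22.6% of the 62 windows of genes at least 1.5-fold higher in both populations and in 15.3% of the 59 windows of genes at least 1.5-fold lower. The AP-1 site was in 7.81%, 11.3% and 6.78%, the grainyhead site in 2.09%, 1.61% and 0%, and the TATA box in 13.6%, 19.4% and 6.78%. Matches to different motifs did not overlap in the 4 windows shown, and a match is a description of the letters only. Of the windows scanned but not shown, Spint1 held an AP-1 site 6 bases upstream. Alox12b, Lama2 and Twist2 held none of the 4 motifs.

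Most epithelial genes were higher at day 9 in both populations. Of 34 epithelial junction genes above the floor, 30 (88.2%) were higher at day 9 in both, against 19.2% of all genes, and 9 were at least 1.5-fold higher in both, against 0.511% of all genes. Their median day change was 0.33 log2 units in CD49d+ cells and 0.27 in CD73+ cells, or 0.53 and 0.61 over the 21 genes left with a floor of 200. Epcam, an epithelial adhesion molecule also found on stem cells, went from 286 to 787 in CD49d+ cells and from 263 to 401 in CD73+ cells. Spint1, an inhibitor of matriptase-type proteases, went from 235 to 427 in CD49d+ cells and from 187 to 427 in CD73+ cells, and Cdh1, E-cadherin, went from 260.1 to 558 in CD49d+ cells and from 305 to 488 in CD73+ cells. For all 3 genes both day 9 arrays exceeded both day 6 arrays, and ESC stood higher still, at 2393, 1341 and 2962. The list median was above 0 in the other populations too, in CD73- cells (0.20) and in unsorted cells (0.33).

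Of 11 keratins above the floor, 8 (72.7%, against 19.2% of all genes) were higher at day 9 in both and 5 at least 1.5-fold higher in both, where 0.511% of all genes were. The medians were 0.63 and 0.67 log2 units, or 0.35 and 0.58 over the 8 keratins left with a floor of 200. Beside Krt17 the 5 were Krt6a, Krt6b, Krt8 and Krt19. Krt8, a keratin of simple epithelia, went from 409 to 677 in CD49d+ cells and from 543 to 864 in CD73+ cells. Krt6b, a partner of Krt17 in activated epidermis, went from 392 to 669.9 in CD49d+ cells and from 339 to 603 in CD73+ cells, and Krt6a, which stayed dim, went from 106 to 188 in CD49d+ cells and from 125 to 218 in CD73+ cells. The 2 Krt6 genes are close paralogs, and their probe sets may share signal. Krt18, the usual partner of Krt8, read 105 on both days in CD49d+ cells and was at the floor in CD73+ cells, while ESC read 980.2.

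Epidermal and cornified envelope genes had medians of 0.27 and 0.28 log2 units over 20 genes, 13 of them (65%, against 19.2% of all genes) higher in both. With a floor of 200 the medians were 0.13 and 0.07 over 15 genes, and 6 were higher in both. Tgm3, a transglutaminase that crosslinks the cornified envelope, went from 1893 to 2781 in CD49d+ cells and from 817 to 1701 in CD73+ cells, while CD73- cells read 100 and 215. Gsta4, a glutathione transferase, went from 1713 to 2517 in CD49d+ cells and from 1329.6 to 2769 in CD73+ cells, and Sprr2b, a small proline-rich envelope protein, from 177 to 315 in CD49d+ cells and from 134 to 252 in CD73+ cells. The summed intensity of the keratinocyte markers in CD49d+ cells was 864 at day 6 and 1139.9 at day 9, and in CD73+ cells 1306 and 1422, against 5088 and 5258 in unsorted cells. Of the 7 measured, Ivl, Trp63 and Sprr2h were at the floor on all 4 poised arrays. The part of keratinocyte-like cells in these values was not tested; in these bulk samples, a change in the share of cells of a type and a change in RNA per cell cannot be told apart.

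Of 24 stem cell network genes above the floor, 12 (50%, against 19.2% of all genes) were higher at day 9 in both populations, most by small amounts. In CD49d+ cells 19 were higher, with a median of 0.16 log2 units, and in CD73+ cells 13, with a median of 0.02, which array centring moved to 0.07. Of all 12711 genes, 6420 were higher in CD49d+ cells and 4891 in CD73+ cells. The 4 at least 1.5-fold higher in both were Nr5a2, Utf1, Epcam and L1td1. Utf1, a chromatin protein of stem cells, went from 225 to 551 in CD49d+ cells and from 288 to 504 in CD73+ cells, but CD73- cells were brighter on both days, at 574 and 1012. L1td1, an RNA-binding protein of stem cells, went from 392 to 725 in CD49d+ cells and from 365 to 612 in CD73+ cells, with CD73- cells at 133 and 207. Nanog, Esrrb, Zfp42, Dppa3, Dppa5a and Sox2 were at the floor on all 4 poised arrays. The sum of the 7 stem cell markers lay between 700.0 and 701 there, against 12390.3 in ESC.

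**Figure D3:**
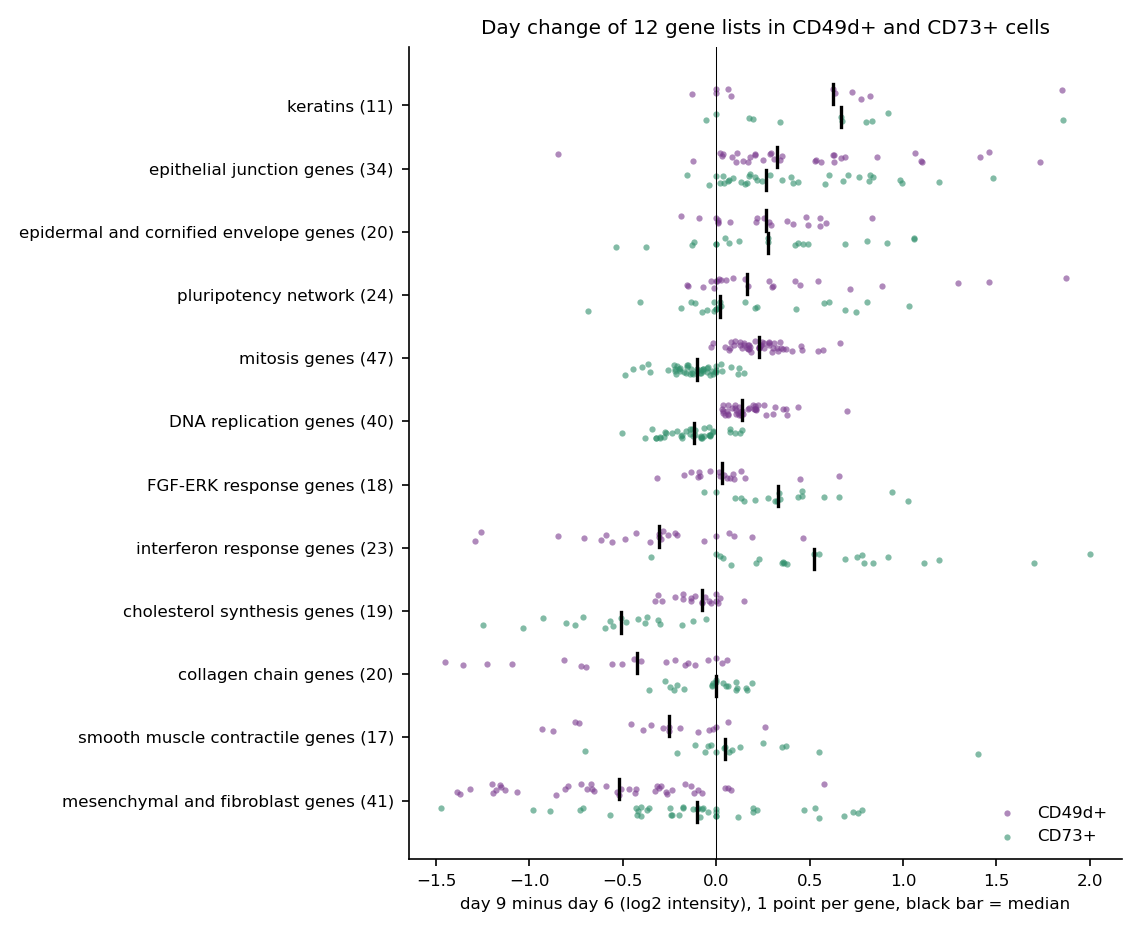
Day change (day 9 minus day 6, log2 intensity) of 12 gene lists in CD49d+ (purple, upper row) and CD73+ cells (green, lower row), 1 point per gene above the floor and a black bar at the median, with the number of genes in brackets. Keratin medians were 0.63 and 0.67, whereas the medians of collagens were -0.42 and 0.00 and those of interferon response genes -0.30 and 0.52.

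Most mesenchymal genes were lower at day 9, and 32 of 41 (78%, against 43.3% of all genes) had the lower day change in CD49d+ cells. Of 41 mesenchymal and fibroblast genes above the floor, 25 (61%) were lower in both populations, against 26% of all genes, and 4 were at least 1.5-fold lower in both, against 0.393%. The medians were -0.52 log2 units in CD49d+ cells and -0.11 in CD73+ cells, and the latter was -0.06 after array centring and -0.02 with a floor of 200. At 1.5-fold, 19 of the 41 were lower in CD49d+ cells and 5 in CD73+ cells, where 1.79% and 1.48% of all genes were. Beside Meox2 and Cd34, Fbln5 (fibulin 5, an elastic fibre protein) went from 975 to 372 in CD49d+ cells and from 368 to 222 in CD73+ cells, against 6347 in MEF. Twist2, a mesenchymal transcription factor, went from 311 to 172 in CD49d+ cells and from 197 to 100 in CD73+ cells; the last value is the floor. In CD73- and unsorted cells the list medians were above 0, at 0.16 and 0.28.

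Thrombospondins showed that contrast. Thbs1, an activator of latent TGF-beta, went from 3463 to 1395 in CD49d+ cells and from 787 to 529 in CD73+ cells, but from 2126 to 3048 in CD73- cells and from 4136 to 5313 in unsorted cells. Thbs2 went from 1218 to 548 in CD49d+ cells and from 458 to 308 in CD73+ cells, but from 546 to 1069 in CD73- cells and from 974 to 1477 in unsorted cells. In both genes the 2 poised populations were lower at day 9 and the 2 other populations higher. The difference between the pairs was -1.38 ± 0.27 log2 units (SE) for Thbs1 and -1.65 ± 0.25 for Thbs2, each with a limma adjusted p of 1.

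Of the genes that were 2-fold apart in CD49d+ cells only, most were lower at day 9, among them Col12a1, Col8a1, Col1a1 and Col1a2. Of 20 collagen genes above the floor, 4 were at least 2-fold lower in CD49d+ cells, against 0.26% of all genes. At least 2-fold lower in CD49d+ cells with a change under 0.5 log2 units downward in CD73+ cells were 20 genes (0.157%). Among them Col12a1, a fibril-associated collagen, went from 1177 to 429.9 in CD49d+ cells, with 189 and 159 in CD73+ cells. Thy1, a fibroblast surface glycoprotein that is lost early in reprogramming, went from 785 to 315, with 146 and 136 in CD73+ cells. For both genes the CD49d+ level of day 9 still lay above the CD73+ level of either day.

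F3, tissue factor, went from 428 to 156 in CD49d+ cells and from 139.7 to 100 in CD73+ cells, where day 9 was at the floor. Efemp1 (fibulin 3) went from 636 to 246, and Col8a1 from 455 to 178. Col1a1 and Col1a2, the chains of collagen I, went from 1537 to 719.7 and from 976 to 416, against 6664 and 5618 in MEF. The full set also held Ogn, Cdh11, Tnc, Osr1, Abcd2, Lox, Dnm1, Pdgfrb, S1pr3, Cav1 and Rian, and the interferon genes Oas2 and Usp18. These were named after their values were seen. From 139.7 in CD73+ cells the floor allows no fall as large as 0.5 log2 units, so F3 could not leave this set. Genes close to the floor at day 6 in CD73+ cells, where the set's median was 186, can enter it through the floor alone. This was not tested.

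The rule did not use MEF, SC4, CD73- or unsorted cells. In 18 of the 20 genes (90%) MEF stood above all 4 poised arrays, against 34.6% of all genes, with a median intensity of 4866 in MEF. In 16 (80%, against 24.5% of all genes) the values of both CD73- and unsorted cells were higher at day 9. SC4 was at the floor in 12 (60%), against 7.16% of all genes. The poised levels themselves are part of the rule and are given as a description: in 19 the day 6 CD49d+ array was above the day 6 CD73+ array, with medians of 566 and 186, and at day 9 the medians were 230.1 and 225.

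Fibroblast marker sums were lower at day 9 in both poised populations, whereas the median of this set was lower in CD49d+ cells only. The summed intensity of the 9 fibroblast markers, which share genes with the set, in CD49d+ cells was 10059 at day 6 and 6638 at day 9, and in CD73+ cells 7679 and 5599, against 40270.5 in MEF. All 9 markers were above the floor on at least 1 poised array. The part of remaining fibroblasts in these differences was not tested. The adipocyte markers Adipoq, Fabp4 and Plin1 were at the floor on all 4 poised arrays, as were 5 of the 6 macrophage and blood markers, Cd68 being the exception. On longer lists of such markers, 4 of 9 adipocyte genes, Lpl and Plin2 among them, and 3 of 12 macrophage and blood cell genes were above the floor on at least 1.

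**Figure D4:**
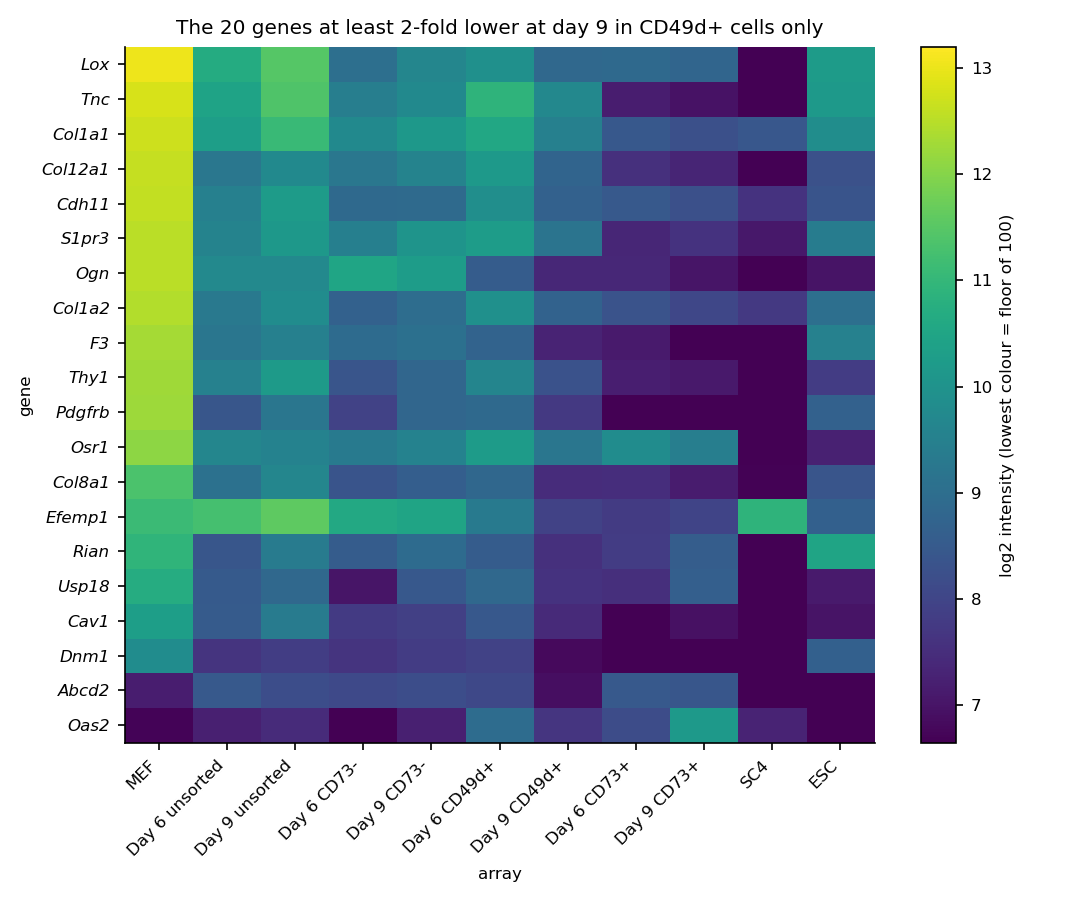
Log2 intensity (colour, lowest colour at the floor of 100) of the 20 genes at least 2-fold lower at day 9 in CD49d+ cells only, on all 11 arrays, ordered by the MEF level. MEF exceeds all 4 poised arrays in 18 of 20 genes, day 6 CD49d+ exceeds day 6 CD73+ in 19 of 20, and SC4 is at the floor in 12.

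Collagens followed the same division. All 20 collagen genes above the floor had a lower day change in CD49d+ than in CD73+ cells, against 43.3% of all genes, and the medians were -0.42 and 0.00 log2 units, where the CD73+ median was 0.05 after array centring and just below 0 with quantile scaling, and the CD49d+ median was -0.69 over the 13 genes left with a floor of 200. At 1.5-fold, 7 collagens were lower in CD49d+ cells, against 1.79% of all genes, and 0 in CD73+ cells, against 1.48%. For the difference between the populations limma called 0 genes, and 631 (4.74%) had an unadjusted p under 0.05. Smooth muscle contractile genes had medians of -0.25 and 0.04, the latter 0.09 after centring. Of 16 laminin and basement membrane genes 6 (37.5%, against 26% of all genes) were lower and 4 (25%, against 19.2%) higher in both populations. Beside Lama2, which was lower, Lama5, a chain of epithelial basement membranes, went from 474 to 703 in CD49d+ cells and from 402 to 775 in CD73+ cells, and Lama3, of the laminin that anchors epidermis, from 464 to 594 in CD49d+ cells and from 594 to 1315 in CD73+ cells.

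Only 5 genes (0.0393%) were at least 2-fold higher in CD49d+ cells with a change under 0.5 log2 units upward in CD73+ cells. They were Dkkl1, Large2, Fgf15, Mal2 and Bex4. Dkkl1, a Dickkopf-like secreted protein, went from 177 to 418, and Large2, a glycosyltransferase of dystroglycan, from 124 to 263, with 1598 in ESC. Fgf15 went from 172 to 364, well under the 1223 and 1079.9 of CD73- cells. The other two, Mal2, a protein of apical membrane traffic, and Bex4, went from 165 to 343 and from 179 to 359.9; Bex4 in CD73+ cells stood at 460.5 and 448. This count was 3 after centring the arrays or with a floor of 200. With that floor Large2, Fgf15, Mal2 and Bex4 no longer reached 2-fold, so most of the 3 genes counted there were not among the 5.

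Higher at day 9 in CD73+ cells only were 55 genes (0.433%), at least 2-fold with a change under 0.5 log2 units upward in CD49d+ cells. Serpina3n, an acute phase protease inhibitor, went from 301 to 946 in CD73+ cells and from 177 to 218 in CD49d+ cells. Nccrp1, an F-box protein of squamous epithelium, went from 452 to 1297, against from 415 to 557, and Fry, a regulator of cell shape and polarity, from 352 to 1011, against from 348 to 446. Sp110, a nuclear body protein induced by interferon, was at the floor on the other 3 poised arrays and 314 at day 9 in CD73+ cells, at least 3.14-fold higher. In 44 of the 55 (80%, against 24.5% of all genes) both CD73- and unsorted cells were also higher at day 9. This count was 34 with a floor of 200.

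Interferon response genes differed in opposite directions in the 2 populations. Oas2, an antiviral oligoadenylate synthetase, went from 287 to 1148 in CD73+ cells, 4-fold higher, and from 496 to 203 in CD49d+ cells, 2.44-fold lower. Oasl2, of the same family, went from 125 to 405 in CD73+ and from 269.8 to 176 in CD49d+ cells. Usp18, which removes the ubiquitin-like ISG15, went from 183 to 396 and from 464 to 193. In all 3 genes CD49d+ cells were higher at day 6 and CD73+ cells at day 9. Oas2 and Usp18 were the only genes at least 2-fold apart in opposite directions (0.0157%), and 11 genes were at 1.5-fold (0.0865%), all higher in CD73+ cells.

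Of 23 interferon response genes above the floor, 16 (69.6%) were lower in CD49d+ cells and higher in CD73+ cells at day 9, against 17.7% of all genes. The medians were -0.30 and 0.52 log2 units, and 0.51 in CD73- and 0.14 in unsorted cells. At 1.5-fold 6 were lower in CD49d+ cells, against 1.79% of all genes, and 10 were higher in CD73+ cells, against 2.31%. Xaf1, a pro-apoptotic protein induced by interferon, went from 353 to 807 in CD73+ and from 631 to 514 in CD49d+ cells, and Igtp, an immunity-related GTPase, from 107 to 181 and from 152 to 159.9. MEF had 1662 of Usp18 and 1220.1 of Oasl2, and SC4 had both at the floor. The limma test of the difference between the populations had 1 residual degree of freedom; for Oas2 it was -3.29 ± 0.24 log2 units (CD49d+ minus CD73+, SE; adjusted p = 0.837).

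Genes lower at day 9 in CD73+ cells only numbered 8 (0.0629%), and 2 of them make sterols. Fdps, farnesyl diphosphate synthase, went from 2613 to 1099 in CD73+ cells and from 3730.1 to 3049.9 in CD49d+ cells. Msmo1, a sterol demethylase, went from 737 to 360.3 and from 727 to 689. The CD49d+ arrays of the 2 days lay close together for Msmo1, whereas Fdps was also lower at day 9 in CD49d+ cells, by less than in CD73+ cells. In both genes the CD73+ array of day 9 was the lowest of the 4. The other 6 were Mab21l2, Fndc3c1, the Wnt ligand Wnt16, Morc1, the transcription factor Foxp2, and Lipg, named to complete the set. Mab21l2, a factor of eye and body wall development, went from 436 to 147, and Wnt16 from 254 to 100, at the floor on both day 9 poised arrays. The count was 3 with a floor of 200 and 5 with a limit of 0.25 log2 units in CD49d+ cells, where Fdps was no longer counted. Genes close to the floor at day 6 in CD49d+ cells can enter this set through the floor alone, which was not tested.

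Of 19 cholesterol synthesis genes, all 19 were lower at day 9 in CD73+ cells and 14 in CD49d+ cells, with medians of -0.51 and -0.08 log2 units. Of all 12711 genes, 7224 were lower in CD73+ cells and 5873 in CD49d+ cells. The 14 were lower in both (73.7%, against 26% of all genes), and none was higher in both. In 18 (94.7%, against 56.6% of all genes) the day change was lower in CD73+ cells. At 1.5-fold 7 were lower in CD73+ cells, against 1.48% of all genes, and 0 in CD49d+ cells, against 1.79%. Cyp51, lanosterol demethylase, went from 683 to 604 in CD49d+ cells and from 1011 to 532 in CD73+ cells, and Nsdhl, a sterol dehydrogenase, from 2336 to 1859 in CD49d+ cells and from 1963 to 1162 in CD73+ cells. Unsorted cells had a median of -0.42 and CD73- cells of -0.21.

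**Figure D5:**
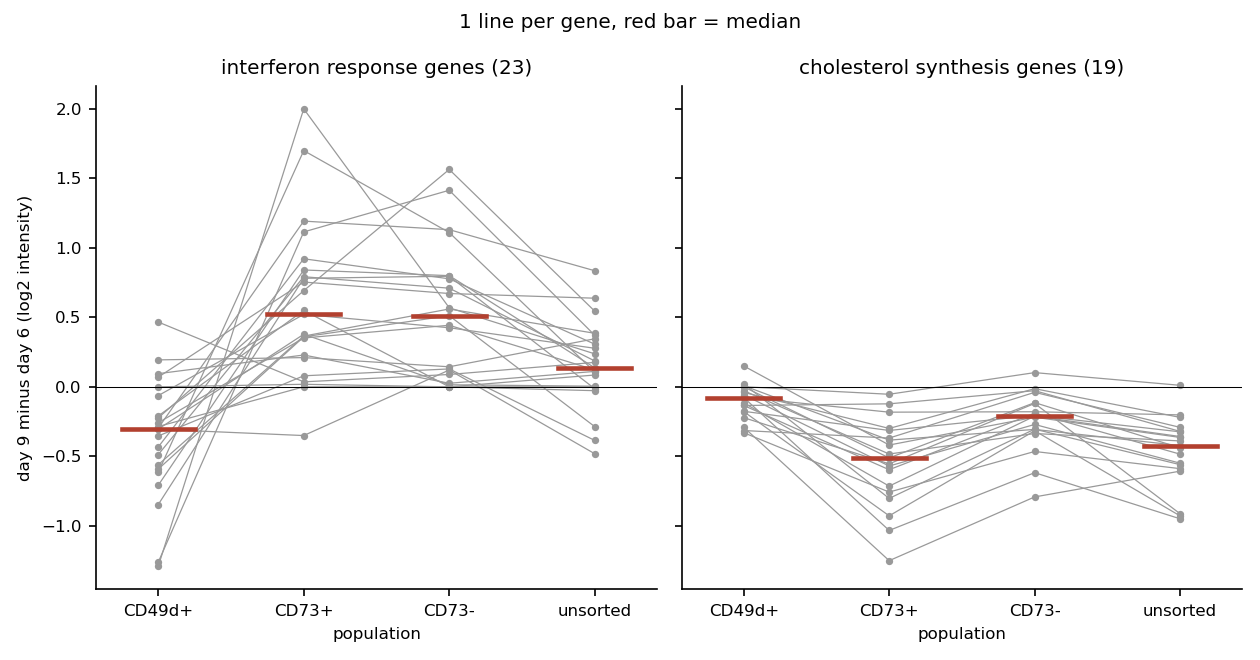
Day change (day 9 minus day 6, log2 intensity) of 23 interferon response genes (left) and 19 cholesterol synthesis genes (right) in 4 populations, 1 line per gene and a red bar at the median. Interferon medians were -0.30 in CD49d+ and 0.52 in CD73+ cells, and cholesterol medians -0.08 and -0.51.

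Cell cycle genes differed by small amounts in opposite directions. Of 47 mitosis genes, 37 (78.7%) were higher at day 9 in CD49d+ cells and lower in CD73+ cells, against 29.3% of all genes, and of 40 DNA replication genes 35 (87.5%) were. The mitosis medians were 0.23 and -0.10 log2 units and the replication medians 0.14 and -0.12. With each array centred on its median the CD73+ medians were nearer to 0, at -0.06 and -0.07, and the genes higher in both populations went from 7 to 14 and from 5 to 12. Kif20b, a mitotic kinesin, went from 421 to 626 in CD49d+ cells and from 643 to 629 in CD73+ cells, and Dut, which clears dUTP, from 703 to 1143 in CD49d+ cells and from 1399.7 to 1188 in CD73+ cells. Spc25, a kinetochore protein, went from 253 to 401 in CD49d+ cells and from 375 to 370.5 in CD73+ cells: the day 6 CD49d+ array was the lowest of the 4 in all 3 genes.

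Hypoxia response genes had the same signs, with medians of 0.23 and -0.19 over 15 genes, 14 of which (93.3%, against 56.6% of all genes) had the higher day change in CD49d+ cells. Egln3, the oxygen-sensing prolyl hydroxylase, was higher in both, from 596 to 866 in CD49d+ cells and from 634 to 782 in CD73+ cells, while Higd1a, a mitochondrial protein induced by hypoxia, went from 168 to 259 in CD49d+ cells and from 231 to 205 in CD73+ cells. Of 18 glycolysis genes 14 were higher in CD49d+ cells and 11 lower in CD73+ cells, with medians of 0.16 and -0.04, the latter 0.01 after centring. Of all 12711 genes, 6420 were higher in CD49d+ cells and 7224 lower in CD73+ cells, so the CD73+ count was near the share over all genes. Among the list's members with the largest mean changes were the glucose transporters: Slc2a3 went from 367 to 681 in CD49d+ cells and from 273 to 380.1 in CD73+ cells and Slc2a1 from 2969 to 5175 in CD49d+ cells and from 2815 to 3087 in CD73+ cells. In 17 of 18 FGF-ERK response genes (94.4%, against 43.3% of all genes) the day change was lower in CD49d+ than in CD73+ cells, and the medians were 0.03 and 0.33. The ERK phosphatase Dusp6 went from 843 to 1717 in CD73+ cells, with 1624 at day 6 and 1589 at day 9 in CD49d+ cells. The related Dusp4 went from 496 to 782 in CD49d+ cells and from 482 to 926 in CD73+ cells, and Fgf4, a stem cell growth factor, from 927 to 1266 in CD49d+ cells and from 809 to 1205 in CD73+ cells.

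Surface proteins used to follow reprogramming numbered 27 above the floor, of which 8 (29.6%, against 19.2% of all genes) were higher and 6 (22.2%, against 26%) lower in both populations. Itgb4, the integrin chain of hemidesmosomes, went from 939.6 to 1594 in CD49d+ cells and from 983 to 2872 in CD73+ cells, and Cd34, a progenitor and mesenchymal marker, from 321 to 213 in CD49d+ cells and from 483 to 261 in CD73+ cells. Of neural and neuropeptide genes 13 of 20 (65%, against 19.2% of all genes) were higher in both, with medians of 0.15 and 0.10. Trh, the thyrotropin-releasing hormone precursor, was already 3839 in CD49d+ cells at day 6 and 4344 at day 9, and went from 1219 to 2713 in CD73+ cells. The 4 neural markers, Nefl among them, summed in CD49d+ cells to 7079.8 at day 6 and 8927 at day 9 and in CD73+ cells to 6837 and 7766, with Dcx at the floor on all 4; their part in these values was not tested.

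Signalling lists gave small differences. TGF-beta and activin genes had a median of -0.16 log2 units in CD49d+ cells and 0.00 in CD73+ cells, the latter 0.05 after array centring. Tgfb3, a TGF-beta ligand, went from 1187 to 692 in CD49d+ cells and from 961 to 738 in CD73+ cells, and Ccn1, a matrix-associated signalling protein, from 1770.0 to 914 in CD49d+ cells and from 706 to 766 in CD73+ cells. Immediate early and AP-1 genes had medians of -0.12 (-0.19 with the mean of probe sets, -0.08 with a floor of 200) and 0.11, with Jun, an AP-1 subunit, lower in both, from 768 to 480.2 in CD49d+ cells and from 737 to 560.3 in CD73+ cells. BMP and Id genes had medians of -0.05 and -0.02, the latter 0.02 after centring, with 3 of 17 (17.6%, against 19.2% of all genes) higher and 7 (41.2%, against 26%) lower in both. Of the list's members with the largest mean changes, Id1 went from 424 to 432 in CD49d+ cells and from 371 to 608 in CD73+ cells and Id4 from 279 to 302 in CD49d+ cells and from 289 to 450.1 in CD73+ cells. Bmp4, also among these members, was lower in both, with changes of -0.52 log2 units in CD49d+ cells and -0.10 in CD73+ cells. Of 28 Hox genes above the floor, 13 (46.4%, against 26% of all genes) were lower in both populations, by small amounts: the medians were -0.07 and -0.08 log2 units, the latter -0.03 after centring.

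Some transporters of amino acids were higher at day 9 in both populations, but most genes of their list were not. Slc7a3, a cationic amino acid transporter of stem cells, went from 1715 to 3376 in CD49d+ cells and from 1566 to 2261 in CD73+ cells. The 25 genes of the amino acid stress list had medians of 0.01 and -0.16 log2 units, the latter -0.10 with a floor of 200. Of these 25, 3 (12%, against 19.2% of all genes) were higher and 7 (28%, against 26%) lower in both populations. Slc7a11, the cystine transporter, went from 274 to 342 in CD49d+ cells and from 244 to 642 in CD73+ cells, against 4031 in SC4. Plet1, a surface protein of trophoblast and skin progenitors, went from 851 to 1813 in CD49d+ cells and from 559 to 1035 in CD73+ cells, and from 374 to 999 in CD73- cells and from 793 to 1616 in unsorted cells. Its 4 day 9 arrays were each above the day 6 array of the same population, and the poised days did not overlap.

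For most genes higher at day 9 in both populations, MEF lay below the poised arrays. Of the 65 genes at least 1.5-fold higher in both, MEF was below all 4 poised arrays in 53 (81.5%), against 42.2% of all genes, and SC4 was above MEF in 51 (78.5%, against 52.2%). ESC was above MEF in 42 (64.6%, against 48.2%). Of the 50 genes at least 1.5-fold lower in both, MEF was above all 4 poised arrays in 27 (54%, against 34.6%), and SC4 was at the floor in 21 (42%, against 7.16%). Of the 65, 54 (83.1%, against 24.5% of all genes) were also higher at day 9 in both CD73- and unsorted cells, with median changes of 0.44 and 0.63 log2 units. Of the 50, 25 (50%, against 26.3%) were lower in both of these, with medians of -0.08 and -0.30. The difference between the poised pair and the other pair passed the limma test for 0 genes (533, or 4.0%, at an unadjusted p under 0.05), so none of these genes is shown to be particular to poised cells.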

How the data were processed

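Total RNA of 11 samples was labelled with an Affymetrix whole-transcript kit, per the labels, and measured on 1 array per sample. The deposited values are intensities on a linear scale for 41345 probe sets, none below 100. The submitters' processing notes name Partek and no version. For summarisation, background correction, scaling and genome build, the method was not given in the sources used here. Day changes are differences in log2 of these intensities, with no further scaling. The platform's annotation gave 23521 probe sets 1 symbol, 1814 several and 16010 none; probe sets with 1 symbol were used, and of several for a gene the one with the highest mean was kept, giving 22180 genes.

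The day term was fitted with limma 3.58.1 (lmFit, eBayes; R 4.3.3) on 13313 genes above 100 on any of the 8 reprogramming arrays, with Benjamini-Hochberg adjustment; the code was checked on simulated data. The number of arrays limits the precision. Genes were named by rule: the 12 largest mean differences each way among genes at least 1.5-fold in both populations and at 200 or more on the higher side, 6 each way in 1 population only, and up to 4 per list, predicted and small RNA genes left out. Members and lists were chosen with earlier results of these data known.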

Additional observations from a re-analysis of the deposited data

Results flagged for a closer look

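For 11 genes the 2 poised populations differed in opposite directions, at least 1.5-fold down in CD49d+ cells and at least 1.5-fold up in CD73+ cells. One, with a clone name, is left out by the naming rule, and 10 are given. The changes in CD49d+ minus those in CD73+ cells were -3.29 log2 units for Oas2, -2.37 for Usp18, -2.31 for Oasl2, -1.82 for Oas1b, -1.63 for Rtp4, -1.57 for Helz2 and -1.55 for Irf7, all interferon response genes by background knowledge. They were -1.89 for Ecm1 (an extracellular matrix protein), -1.59 for Loxl1 (a crosslinker of elastin) and -1.78 for Rian (an imprinted long noncoding RNA). With 1 array per population and day these differences were not tested against replicates. The limma test of the difference called 0 genes, with 631 (4.74%) at an unadjusted p under 0.05. Its spread is in part that between CD73- and unsorted cells and in part a prior over all genes.

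Of the genes named by rule, 3 were lower at day 9 by at least 0.5 log2 units in both poised populations and higher by at least 0.25 in both CD73- and unsorted cells; other genes were not searched for this pattern. The mean poised change minus the mean change of the other pair was -2.02 log2 units for Fabp7, -1.38 for Thbs1 and -1.65 for Thbs2. The limma test of this difference called 0 genes, with 533 (4.0%) at an unadjusted p under 0.05.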

How the results depend on the processing

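No named gene with a mean poised change of at least 1.5-fold changed sign under centring, quantile normalization, a floor of 200 or the mean of probe sets. By more than its SE, the mean change moved for 33 of the 177 named genes with a value under the floor of 200 and for 10 of 198 with the mean of probe sets. Centring followed by 1 floor was not run for single genes. With a threshold of 1.5-fold the counts became 65 higher and 50 lower in both populations, 79 higher and 168 lower in CD49d+ cells only, and 213 higher and 130 lower in CD73+ cells only. Genes higher in CD49d+ cells only numbered 3 after centring each array on its median and 3 after centring and then raising all values to 1 floor. They numbered 3 with the mean of a gene's probe sets and 3 with a floor of 200, where most were not among those named above. With the floor of 200, 34 genes were higher and 3 lower in CD73+ cells only, and with a limit of 0.25 log2 units in the other population 5 were lower. The limma poised day term called 41 genes after centring and 4 (Krt17, Ehf, Rgs5 and Lama2) among genes over 200 on at least 1 array, and the CD49d+ minus CD73+ difference called 9 after centring. Centring gives values at the floor a spread of their own, and with 1 floor set afterwards both terms called 0; the cause of the 4 calls was not tested. Centring followed by 1 floor was chosen after seeing the data. Leaving out each of the 8 arrays in turn gave 0 calls for the poised day term and for its difference from the other pair, where the genes below an unadjusted p of 0.05 numbered 322 to 896; such a fit pools the spread of the remaining populations. No paired analysis was possible because each group holds 1 array, so replicate numbers pair nothing; the population terms of the fit already set day 9 against day 6 within a population. Depth does not apply to arrays; genes near the floor of 100 have only bounds.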
